A study of Mus musculus with 10 samples.

Results

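The CpGs described here lie near the distal ends of the 19 mouse autosomes, the ends away from the centromere. A cytosine belonged to them when it lay within 2 Mb of the highest position covered on its chromosome in the deposited table. That position is the last covered cytosine and not the end of the chromosome, whose length was not used here. The rule found 36121 cytosines on 25414 CpGs, which is 1.84% of the autosomal cytosines and 1.82% of all 1988759 cytosines measured. Gathered in 1 kb tiles with at least 3 CpGs, they gave 2641 tiles, and 1 tile that crossed a window border was left out.

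The data were reduced representation bisulfite sequencing (RRBS) libraries of testis DNA from F2 mice, 5 labelled arsenic and 5 labelled control. RRBS enriches CpG-rich restriction fragments, and bisulfite turns unmethylated cytosines into bases read as thymine while methylated ones stay cytosine. The labels give no dose, age or strain, and do not say which ancestor was treated. Nor do they state whether each library is a mouse of its own, and the p-values rest on differences among libraries that may be technical. By label all libraries share tissue, generation and library type, and they differ in treatment and replicate number. Litter and batch are not given, so their part cannot be told apart from that of treatment.

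In mammals most CpGs carry methyl groups, and CpG-rich promoters are the common exception. Mouse autosomes have their centromere at one tip, so each has a single long arm whose far end borders a telomere, a repeat array to which short reads cannot be assigned. Subtelomeric DNA is known in mammalian cells for dense methylation that maintenance and de novo methyltransferases lay down. In testis, bulk DNA mixes germ cells at many stages with Sertoli, Leydig and other somatic cells, and a difference in level cannot tell fewer cells of a type from a change within cells.

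The promoters below were picked to show the states that distal CpGs had: CpG-dense and unmethylated (Sp8, Rtel1, Hrh3, Nanos1, Mettl4) or CpG-poor and methylated (Plch2, Agrn, B3galt5). Each runs 5′ to 3′ from 250 bases before to 50 after a start that RefSeq gives the gene on GRCm38.p6, the assembly behind mm10. Where a gene had several such windows, the one with the most covered CpGs was printed, which need not be at the outermost start. The capitals mark CpGs with reads in all 10 libraries.
Sp8, a transcription factor of limb outgrowth, chr12:118846983-118847282, plus strand: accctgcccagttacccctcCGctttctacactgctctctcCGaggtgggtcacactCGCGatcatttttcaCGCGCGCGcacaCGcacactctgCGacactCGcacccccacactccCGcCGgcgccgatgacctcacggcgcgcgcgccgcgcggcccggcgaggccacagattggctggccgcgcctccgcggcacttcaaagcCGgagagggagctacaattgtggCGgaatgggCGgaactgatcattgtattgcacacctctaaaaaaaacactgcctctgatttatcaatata
Rtel1, a helicase that unwinds telomere loops, chr2:181319474-181319773, plus strand: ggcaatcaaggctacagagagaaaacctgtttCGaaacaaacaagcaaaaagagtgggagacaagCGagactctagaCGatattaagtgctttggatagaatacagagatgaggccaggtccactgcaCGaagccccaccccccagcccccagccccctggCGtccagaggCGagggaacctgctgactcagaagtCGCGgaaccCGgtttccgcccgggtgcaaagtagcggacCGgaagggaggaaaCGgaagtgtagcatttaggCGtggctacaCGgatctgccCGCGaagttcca
Hrh3, the histamine H3 receptor, chr2:180104358-180104657, minus strand: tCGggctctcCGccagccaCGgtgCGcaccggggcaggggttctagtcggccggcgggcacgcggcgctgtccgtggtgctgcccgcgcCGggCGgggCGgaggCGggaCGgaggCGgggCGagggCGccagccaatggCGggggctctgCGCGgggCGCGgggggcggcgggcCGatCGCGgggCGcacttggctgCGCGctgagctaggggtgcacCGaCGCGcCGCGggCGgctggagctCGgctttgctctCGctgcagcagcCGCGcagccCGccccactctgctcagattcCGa
Nanos1, an RNA-binding protein of the Nanos family, chr19:60755737-60756036, plus strand: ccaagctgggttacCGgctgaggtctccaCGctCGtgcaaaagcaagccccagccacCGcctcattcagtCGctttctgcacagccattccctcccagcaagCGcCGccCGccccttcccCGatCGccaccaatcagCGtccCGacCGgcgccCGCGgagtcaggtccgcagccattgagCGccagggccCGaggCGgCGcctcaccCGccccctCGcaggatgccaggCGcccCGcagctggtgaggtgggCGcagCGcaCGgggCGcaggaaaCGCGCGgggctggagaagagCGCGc
Mettl4, an adenine methyltransferase, chr17:94749970-94750269, minus strand: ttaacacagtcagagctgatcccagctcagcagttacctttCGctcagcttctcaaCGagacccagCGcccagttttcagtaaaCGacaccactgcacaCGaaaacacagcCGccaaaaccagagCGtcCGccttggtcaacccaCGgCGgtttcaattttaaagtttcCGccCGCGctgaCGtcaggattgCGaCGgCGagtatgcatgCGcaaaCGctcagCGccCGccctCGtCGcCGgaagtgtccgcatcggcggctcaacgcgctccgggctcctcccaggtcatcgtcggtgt
Plch2, a phospholipase C, chr4:155019379-155019678, minus strand: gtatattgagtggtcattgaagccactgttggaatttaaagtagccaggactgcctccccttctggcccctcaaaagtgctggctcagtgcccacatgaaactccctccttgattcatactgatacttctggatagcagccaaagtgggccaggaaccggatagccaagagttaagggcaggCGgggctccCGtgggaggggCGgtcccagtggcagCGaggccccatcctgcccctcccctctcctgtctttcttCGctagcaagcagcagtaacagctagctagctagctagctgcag
Agrn, the organiser of neuromuscular junctions agrin, chr4:156186210-156186509, minus strand: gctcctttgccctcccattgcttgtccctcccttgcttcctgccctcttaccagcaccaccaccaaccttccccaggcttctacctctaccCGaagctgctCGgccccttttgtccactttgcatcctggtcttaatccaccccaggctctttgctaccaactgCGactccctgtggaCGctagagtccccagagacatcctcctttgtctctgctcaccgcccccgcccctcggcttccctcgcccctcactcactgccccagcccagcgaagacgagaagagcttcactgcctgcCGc
B3galt5, a galactosyltransferase, chr16:96273263-96273562, plus strand: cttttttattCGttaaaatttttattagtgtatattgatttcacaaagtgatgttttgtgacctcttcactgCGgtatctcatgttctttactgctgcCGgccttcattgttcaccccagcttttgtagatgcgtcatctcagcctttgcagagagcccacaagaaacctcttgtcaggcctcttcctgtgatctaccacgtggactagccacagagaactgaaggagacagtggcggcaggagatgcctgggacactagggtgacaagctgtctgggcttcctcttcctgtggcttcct

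The 5 unmethylated promoters held 18 CpGs (Rtel1) to 47 CpGs (Hrh3), and the 3 methylated ones held 6 CpGs (Plch2, B3galt5) to 11 CpGs (Agrn). The methylation level of a cytosine is the percent of its reads that were methylated. Rtel1 stood at 1.09% ± 0.811 in arsenic and 1.54% ± 1.49 in control libraries (SD, n = 5 each), over 15 covered CpGs. The Sp8 promoter stood at 2.32% ± 1.99 in arsenic and 5.53% ± 6.76 in control, and its 10 libraries ranged up to 13.2%. Nanos1 stood at 3.96% ± 4.92 in arsenic and 3.63% ± 5.03 in control, over 32 of its 34 CpGs. The methylated promoters stood at 81.1% ± 6.28 and 73.9% ± 10.1 (Plch2), 76.8% ± 7.76 and 70.4% ± 16.0 (Agrn), and 83.2% ± 7.56 and 83.9% ± 5.59 (B3galt5) in arsenic and control libraries. The printed Agrn window lies inside the gene, which spans 156165290 to 156197533. A tile within 1 kb of its outer start (156196001 to 156197000) averaged 3.76% ± 4.62 in arsenic and 9.45% ± 8.05 in control libraries. In each of the 8 promoters the group means were closer than the larger of their SDs.

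Coverage was alike inside and outside the windows. The distal cytosines carried 1451203 to 1683536 reads per arsenic library and 1138114 to 1529520 per control library. Their median coverage was 34 to 40 reads in the arsenic libraries and 26 to 36 in the control libraries, against 35 to 40 and 27 to 36 over all cytosines. No cytosine had fewer than 10 reads in any library. Pearson's r of distal levels between pairs of libraries was 0.951 to 0.969 across cytosines, which are not independent replicates. Control libraries 4 and 5 stood highest in mean level and were among the 3 shallowest, and results are given without them where that changes a call or a direction. As a check of the tissue label, 11 of 14 listed maternally methylated imprinted regions were measured, regions that are unmethylated in male germ cells. They averaged 16.6% (15.7% to 17.6%) in arsenic and 17.2% (13.6% to 20.3%) in control libraries, and without Peg3, which stood at 77.5%, 10.6% (9.56% to 11.5%) and 11.05% (7.49% to 14.1%). Ends of 8 germ cell genes averaged 18.8% (15.1% to 22.8%) in arsenic and 20.01% (18.9% to 22.2%) in control. The paternally methylated flank of H19 averaged 93.5% in arsenic and 93.6% in control.

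The first question was how methylated the distal CpGs were beside the rest of the autosomes. They were less methylated in every library. The distal mean was 45.3% ± 0.431 and the mean of the other autosomal cytosines 53.6% ± 0.369 (SD over 10 libraries). In the arsenic libraries 1 to 5 the distal level was 45.1%, 45.03%, 45.1%, 45.1% and 45.5%, and in the control libraries 1 to 5 it was 45.1%, 44.9%, 45.1%, 45.8% and 46.3%. The within-library difference was -8.30 ± 0.104 percentage points and ran from -8.42 to -8.08. The two-sided exact sign-flip test over the 10 libraries gave p = 0.00195, the smallest that 10 libraries allow. This test covers the spread between libraries of the same genome regions, not the spread between chromosomes. The 2 Mb nearest the centromere-side limit stood at 50.7% ± 0.360, so the distal level was 5.34 points lower than that of the opposite end (difference -5.34 ± 0.216, exact p = 0.00195).

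The size of the gap depended on the length of the window. With windows of 1 Mb it was -10.7 points and with windows of 4 Mb -1.44 points. The difference from the centromere-side end was -9.48 points at 1 Mb and 0.189 at 4 Mb, so its direction turned.

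Pooled over chromosomes, the distal windows were richer in genes and gene ends, which are the least methylated class. They held 13.5 protein-coding genes per Mb, against 8.52 on the rest of the autosomes, and 951 covered cytosines per Mb, against 814. Single windows differed widely. Those of chromosomes 10, 11, 2 and 4 held 84, 68, 60 and 58 protein-coding genes, and those of chromosomes 1, 3, 8, 12, 14, 17 and 18 held 3 to 8. Only 9 of the 19 windows held more cytosines than the median window of their chromosome. Of the 512 distal genes, 64 were olfactory and vomeronasal receptor genes, of which only 4 had a measured tile at an end. Of the distal cytosines 32.2% lay within 1 kb of an end of a protein-coding gene, 37.7% elsewhere inside such genes and 30.1% outside them, against 24.2%, 41.6% and 34.2% for other autosomal cytosines. Within each class the distal level was still the lower one. Near gene ends it was 10.8% ± 0.642 and elsewhere 11.7% ± 0.520, a difference of -0.896 points. Inside genes it was 64.3% ± 0.360 and elsewhere 67.0% ± 0.323, a difference of -2.67. Outside genes it was 58.4% ± 0.427 and elsewhere 67.1% ± 0.368, a difference of -8.65. Each of the 3 differences had the same sign in 10 of 10 libraries (exact sign-flip p = 0.00195, adjusted p = 0.00195 over these and the overall value).

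With windows of 4 Mb the differences near gene ends and inside genes had the opposite sign, at 0.817 and 1.71 points. The difference outside genes kept its sign at every planned setting and ranged from -8.71 to -3.03 points over them. The weakest value came with reads weighted equally.

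Tiles of like class and like CpG number were closer to the level elsewhere, apart from tiles outside genes. The unstratified gap between distal and other autosomal tiles was -5.29 ± 0.101 points, and within 12 strata of genomic class and covered CpG number it was -1.30 ± 0.0937 (exact sign-flip p = 0.00195). These strata were added after the levels had been seen. Tiles inside genes with 3 to 5 CpGs stood at 83.4% in the distal windows and 83.4% elsewhere, and gene-end tiles with over 20 CpGs at 3.70% and 3.62%. Outside genes, distal tiles with 6 to 10 CpGs stood at 66.7%, against 69.9% elsewhere. Those with 11 to 20 CpGs stood at 47.5%, against 57.1% elsewhere, and with over 20 CpGs at 21.4%, against 31.01%. The distal level was the lower in 9 of the 12 strata. The largest difference of the opposite sign was 2.26 points, in tiles inside genes with over 20 CpGs, at 23.04% in the distal windows and 20.8% elsewhere.

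**Figure D1:**
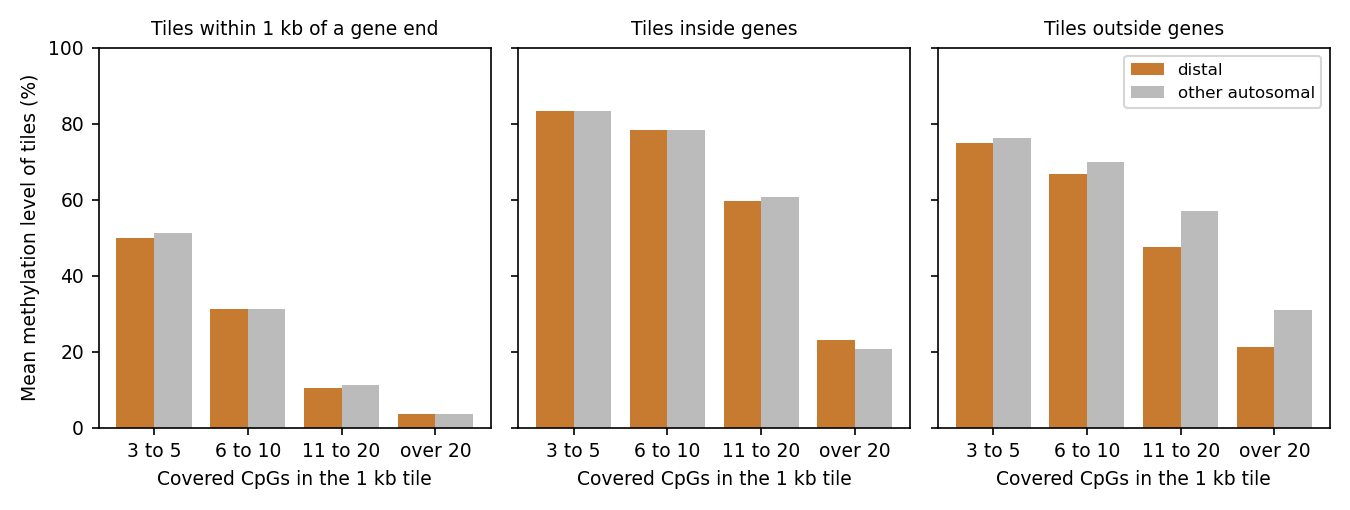
Mean methylation level (%, y axis, mean over 10 libraries) of 1 kb tiles by the number of covered CpGs in the tile (x axis), in 3 genomic classes, for the distal windows (brown) and the other autosomal tiles (grey). The bars of a pair are close in height near gene ends and inside genes, and distal bars are shorter in the dense tiles outside genes, at 47.5% and 21.4% against 57.1% and 31.01%.

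Fewer tiles in the distal windows were highly methylated and more were unmethylated. Of the distal tiles 21.1% had a mean level under 10%, against 14.5% of other autosomal tiles, and 35.3% had one over 90%, against 40.1%. At the centromere-side ends 16.6% of tiles were under 10% and 34.1% over 90%. The low share of highly methylated tiles was therefore not particular to the distal side. Tiles at 25% to 75% made up 14.01% of the distal and 15.4% of the other tiles. Distal tiles were also denser, with 8.67% holding over 20 covered CpGs, against 5.65% of other autosomal tiles and 6.86% at the centromere-side ends. The median SD of a tile between libraries of a group was 3.46 points in the distal windows and 3.50 elsewhere.

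Single chromosomes differed far more from each other than the libraries did. The distal window was below the rest of its chromosome on 13 autosomes and above it on 6, and on each of the 19 all 10 libraries pointed the same way. Chromosome 19 had the lowest distal level, 26.4% ± 0.885 (SD over 10 libraries, window 59330512 to 61330512), against 50.8% on the rest of that chromosome. Next came chromosome 9 at 33.4%, chromosome 6 at 34.2%, chromosome 15 at 35.9%, chromosome 2 at 36.4% and chromosome 12 at 37.5%. Chromosomes 9 and 6, and chromosomes 15 and 2, neighbours in that order, differed by about the SD of their libraries. At the other extreme, chromosome 18 stood at 68.8% ± 0.671 and chromosome 14 at 67.1% ± 0.346, against 54.9% and 52.9% on the rest of those chromosomes. On chromosomes 6, 9, 15 and 19 the distal window was the least methylated of all windows of its length, of which there were 73, 60, 50 and 29.

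**Figure D2:**
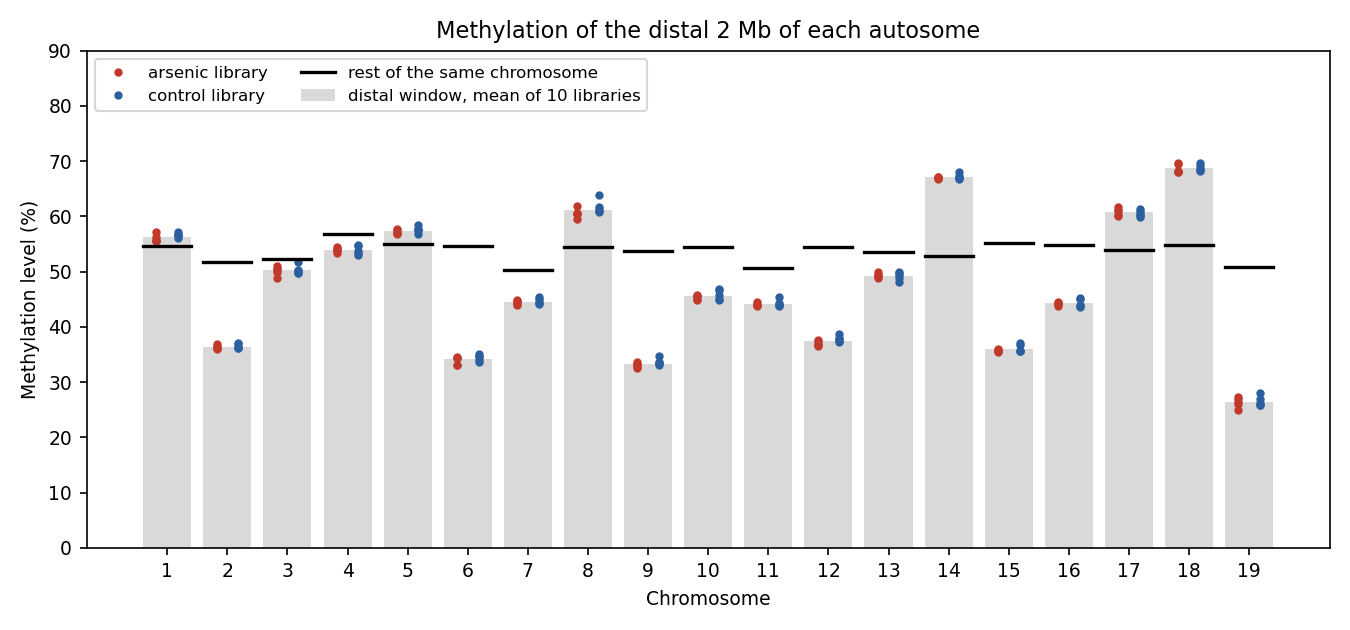
Methylation level (%, y axis) of the distal 2 Mb of each autosome (x axis), as the mean of 10 libraries (grey bar), single arsenic libraries (red, left) and single control libraries (blue, right), with the level of the rest of the same chromosome as a black line. Bars reach from 26.4% on chromosome 19 to 68.8% on chromosome 18, and arsenic and control points overlap on all chromosomes.

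Chromosomes contributed unequally to the distal set. Chromosome 4 alone held 5866 distal cytosines, the most of all windows of that chromosome, while chromosome 17 held 592. The 4 chromosomes with the most cytosines held 50.7% of the set. Leaving out each chromosome in turn moved the gap to the other autosomes between -9.74 points (without chromosome 4) and -7.16 points (without chromosome 15). With chromosomes weighted equally it was -5.88 points. Over the 19 windows, the share of cytosines near gene ends and the distal level had a Spearman's rho of -0.747 and a Pearson's r of -0.718, a description of 19 windows read from the same libraries.

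Chromosome 12 departed from that relation. Only 8.88% of its distal cytosines lay near gene ends, yet its level was 37.5%. The measured CpGs around Sp8 were unmethylated there. In a row of 12 measured tiles with 223 CpGs, spread over 45 kb (chr12:118811001-118856000) of which the remainder was not measured in tiles, each averaged under 10%, with a mean of 2.86% ± 0.735 in arsenic and 3.42% ± 1.30 in control. The Sp8 promoter printed above lies in this interval, and 3 CCGG sites, which the RRBS enzyme MspI cuts, stand in its 300 bases. Outside genes, chromosomes 12 and 15 had the lowest distal levels, 42.9% and 42.4%, against 66.4% and 68.8% elsewhere on them. Without these 2 chromosomes the gap outside genes was -4.82 ± 0.273 points in place of -8.65. Outside genes 12 chromosomes were lower and 7 higher in the distal window.

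Chromosome 15 carries the HoxC cluster in its distal window (chr15:102921131-103036856), a row of homeobox genes that pattern the trunk and tail. Of 52 tiles in the cluster, 31 averaged under 10% and 5 over 75%, with a median tile at 6.06%. The cluster mean was 20.4% ± 0.909 in arsenic and 21.1% ± 1.30 in control libraries. Runs of at least 5 unmethylated tiles, successive among the measured tiles but not always adjacent, were found 13 times in all distal windows. They included the end of chromosome 2 around Sox18, Tcea2 and Rgs19 (6 tiles, 25 kb, 2.49% ± 0.681 in arsenic and 2.62% ± 0.508 in control) and around Gmeb2, Stmn3 and Rtel1 (5 tiles, 33 kb, 2.36% ± 2.64 and 2.49% ± 2.53). Sox18 is a transcription factor of vascular and hair development. Others lay at Hoxc9 on chromosome 15, at Bahcc1 on chromosome 11 and at Cdkn1c on chromosome 7.

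On distal chromosome 7, the imprinted genes Cdkn1c, a cyclin-dependent kinase inhibitor, and Phlda2, a brake on placental growth, bound a stretch of 9 tiles. Of these 7 averaged under 10% and 1 over 75%, and the mean was 14.6% ± 1.23 in arsenic and 16.4% ± 1.49 in control. Further out on this chromosome, 14 tiles from Fgf3 to Fgf15, which encode fibroblast growth factors, were split between 7 tiles under 10% and 5 over 75%. Their mean was 43.7% ± 1.77 in arsenic and 43.8% ± 1.20 in control.

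Promoters in the distal windows were mostly unmethylated, like promoters elsewhere. The reference table held 691 promoter windows of 300 bases in the distal windows, 211 of which were measured, against 8286 of 30705 elsewhere. Of the measured ones, 91.5% averaged under 10% and 4.74% over 75%, against 87.8% and 5.44% elsewhere. The distal mean was 7.17% ± 0.172 in arsenic and 7.39% ± 1.26 in control (exact permutation p = 0.730). The median distal promoter held 10 CpGs, against 7 elsewhere, and CCGG was found in 58.3% of distal promoters, against 53.4%. The letters TTAGGG, the unit of the telomere repeat, or CCCTAA on the other strand, were found in 10.6% of distal promoters and in 10.6% of the others.

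Along the window the level was not even. In bins of 200 kb counted back from the distal limit, it was 52.3% ± 0.291 in arsenic and 52.6% ± 0.558 in control over the last 200 kb. It was 36.5% ± 0.296 in arsenic and 36.6% ± 0.640 in control at 400 to 600 kb, and 36.2% ± 0.259 and 36.4% ± 0.927 at 600 to 800 kb, lowest values that lay within their SD of each other. It was 48.0% ± 0.180 and 48.1% ± 0.792 at 1800 to 2000 kb. The 2 lowest bins also had the highest shares of cytosines near gene ends, 45.4% and 47.03%, while the last 200 kb had 23.9%. These levels pool cytosines of unequally represented chromosomes. The median over chromosomes was 57.0% in the last 200 kb, 37.4% at 400 to 600 kb and 56.9% at 600 to 800 kb, so the low value at 600 to 800 kb was not that of the median chromosome. The arsenic mean was lower in each of the 10 bins, with differences of -0.495 to -0.142 points, which was less than the larger SD of the bin in all of them.

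The cytosines closest to the distal limit were often partly methylated. Over the last 20 kb, 162 of 496 cytosines (32.7%) had a mean level of 25% to 75%, against 10.04% of the other autosomal cytosines. The share was 25.5% at 20 to 50 kb, 17.2% at 50 to 100 kb, 11.3% at 100 to 200 kb and 8.17% over the remainder of the window. These bins were chosen after their values had been seen, so the order is given as a description. The share in the last 20 kb was above that of the remaining window on 13 of 19 chromosomes, among them chromosome 19 (100% of 19 cytosines) and chromosome 7 (85% of 20). On chromosomes 6 and 8 no cytosine of the last 20 kb was partly methylated, of 12 and 72. With each chromosome left out in turn the share lay between 28.1% and 38.2%.

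Cytosines outside genes made up 64.7% of the last 20 kb. Among these alone, the partly methylated share was 38.01%, against 16.9% in the rest of the distal windows and 17.6% on the other autosomes. The centromere-side limit showed the same order with higher values, 39.8% in the first 20 kb and 11.7% at 200 to 2000 kb, so the pattern was not particular to the distal side. Median coverage in the last 20 kb was 34 reads, as in the remainder of the window. Single cytosines there were far deeper, with a highest mean coverage of 244 reads on chromosome 15 and 124 on chromosome 8. On chromosome 15, 66.1% of 59 cytosines were partly methylated, and on chromosome 8, 0% of 72. The part of such deep cytosines in the share was not tested. A level read from 34 reads has a wide interval (34.1% to 65.9% for 50%, Wilson 95%), so partly methylated cytosines were counted on the mean of 10 libraries.

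**Figure D3:**
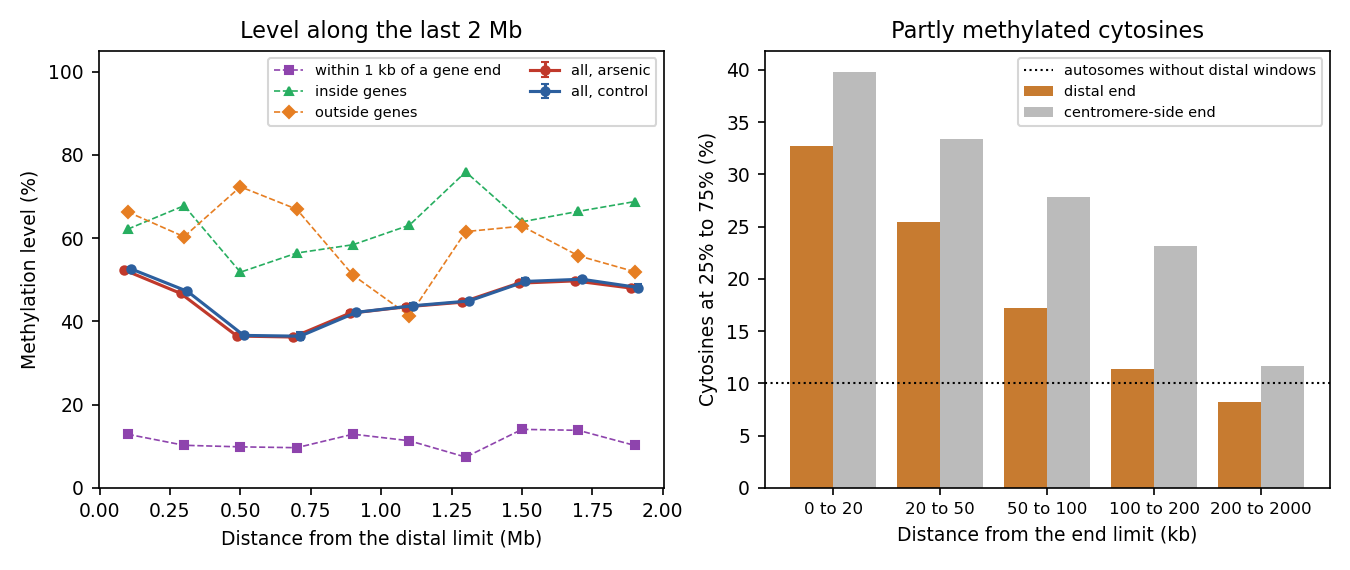
Left, methylation level (%) in 200 kb bins against the distance from the distal limit (Mb), for all cytosines (arsenic red, control blue, mean and SD of 5 libraries) and by genomic class over 10 libraries (dashed). Right, share of cytosines with a mean level of 25% to 75% against the distance from the limit (kb) at the distal (brown) and centromere-side (grey) ends, with 10.04% of the other autosomal cytosines as a dotted line; the distal bars fall from 32.7% to 8.17% away from the limit.

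Counted in single libraries, the partly methylated share of the last 20 kb was 32.02% ± 3.68 in arsenic and 35.0% ± 1.49 in control (exact permutation p = 0.127, adjusted p = 0.227 over 10 bins). At 200 to 2000 kb it was 10.6% ± 0.407 in arsenic and 11.8% ± 0.681 in control (exact permutation p = 0.0238, adjusted p = 0.119). The centromere-side end had a like difference at 200 to 2000 kb, so it was not particular to the distal side. There the share was 13.7% ± 0.518 in arsenic and 14.6% ± 0.453 in control (exact permutation p = 0.0238, adjusted p = 0.119). Distal median coverage was 34 to 40 reads in arsenic and 26 to 36 in control libraries. The part of depth in these differences was not tested.

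The last tile of each chromosome with at least 3 CpGs lay between 0 and 21530 bp from the limit. Its level ranged from 3.53% to 93.4% with a median of 48.3%, and 9 of the 19 last tiles stood at 25% to 75%. On chromosome 12 the last tile, inside Tmem196, held 49.0%, 45.1%, 46.4%, 54.7% and 55.7% in arsenic libraries 1 to 5 and 42.3%, 39.2%, 53.8%, 44.8% and 51.9% in control libraries 1 to 5. The ranges overlapped. On chromosome 15 the last tile, 38689 bp from Mucl2, averaged 35.1% ± 1.25 in arsenic and 38.9% ± 2.19 in control (unadjusted p = 0.0139, adjusted p = 0.748, quasi-binomial model).

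The second question was whether distal methylation differed between the groups. No difference beyond the spread between libraries was found. The distal mean was 45.2% ± 0.194 in arsenic and 45.5% ± 0.578 in control (SD, n = 5 each), a difference of -0.273 points (two-sided exact permutation p = 0.349; the smallest possible p is 0.00794). The other autosomal cytosines differed by -0.276 points. The test of the difference between these gave 0.00382 points (exact p = 0.968). Without control library 5 the distal difference was -0.0606 points, and without control libraries 4 and 5 it turned to 0.124 (exact p = 0.5).

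By genomic class, the distal level outside genes showed the smallest p. It was 58.2% ± 0.261 in arsenic, with 58.4%, 57.9%, 58.2%, 57.9% and 58.5% in libraries 1 to 5. In control it was 58.7% ± 0.420, with 58.4%, 58.5%, 58.4%, 58.8% and 59.4%. The difference of -0.516 points had an exact p of 0.0476 and did not pass after adjustment over the 3 classes (adjusted p = 0.143); arsenic 5 lay above 3 of the control libraries. Without arsenic library 5 it was -0.601 points with an adjusted p of 0.0476, and without control libraries 4 and 5 it was -0.247 (exact p = 0.196). It was lower in arsenic on 18 of 19 chromosomes, which share libraries. The other autosomal cytosines outside genes differed by -0.322 points (exact p = 0.167), and the test of the difference between distal and other gave p = 0.230. Near gene ends the distal level was 10.6% ± 0.261 in arsenic and 10.95% ± 0.883 in control (difference -0.352 points, exact p = 0.444; -0.0336 without control library 5), and inside genes 64.3% ± 0.264 and 64.3% ± 0.471 (exact p = 0.944).

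By chromosome, the distal level was lower in arsenic on 16 of 19 chromosomes, and 0 passed at an adjusted or unadjusted exact p under 0.05. The chromosomes share libraries, and the count leans on control libraries 4 and 5. On chromosomes 2, 11 and 16 the arsenic mean was above each of control libraries 1 to 3. On chromosome 12 it was below each of them. The smallest p belonged to chromosome 12, at 37.1% ± 0.470 in arsenic and 37.9% ± 0.620 in control (exact p = 0.0635, adjusted p = 0.641 over 19). Chromosome 8 had the largest difference, -1.12 points, at 60.6% ± 0.849 in arsenic and 61.7% ± 1.21 in control (exact p = 0.103). Its highest library was control 4, at 63.8%, and without it the difference was -0.597 points (exact p = 0.222).

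No distal tile or cytosine was called. A quasi-binomial model of methylated out of all reads was fitted on the whole table, and a call needed a Benjamini-Hochberg adjusted p under 0.05 and a difference of 10 points. It called 0 of 2641 distal tiles, against 0% of all 165978 tiles, and 0 of 36121 distal cytosines, against 0% of all 1988759. The lowest adjusted p of a distal tile was 0.405 and of a distal cytosine 0.818. An unadjusted p under 0.05 was found at 193 distal tiles (7.31%), against 6.16% of all tiles, with 91 higher (3.45%) and 102 lower (3.86%) in arsenic, against 2.59% and 3.57% of all tiles. For cytosines it was 2301 (6.37%), against 5.97% of all, with 1034 higher (2.86%) and 1267 lower (3.51%) in arsenic, against 2.55% and 3.42% of all cytosines. Limma on log2 ratios also called 0 distal tiles and 0 distal cytosines, with 147 and 1903 at an unadjusted p under 0.05. A binomial test, in which reads count as replicates, called 23 and 1465. The shares over all tiles and cytosines were not computed for limma and the binomial test. Their counts therefore do not set the distal ends apart from the genome.

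The arsenic and control levels did not overlap at 24 distal tiles (0.909%), against 0.832% of all tiles. Of the distal tiles, 13 (0.492%) were without overlap and higher in arsenic, against 0.349% of all tiles, and 11 (0.417%) were without overlap and lower, against 0.483% of all tiles. Of the distal cytosines, 173 (0.479%) did not overlap, against 0.528% of all. The median difference of distal tiles was -0.111 points and that of all tiles -0.0963, and 52.7% of distal and 51.9% of all tiles were lower in arsenic. A difference of 10 points or more was seen at 23 distal tiles (0.871%), against 1.20% of all tiles. A tile had a median of 339 reads per distal library, which puts a Wilson 95% interval of 44.9% to 55.4% around 50% and of 3.15% to 7.88% around 5%. Such intervals cover counting error only, and since neighbouring CpGs share reads they are too narrow.

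Since no tile was called, the 6 with the smallest unadjusted p in each direction are given as tiles that did not pass. Among those higher in arsenic, 2 lay inside N4bp2l1 on chromosome 5. The tile chr5:150593001-150594000 held 40 CpGs and was nearly unmethylated in control, at 1.005%, 0.804%, 0.415%, 0.410% and 0.443% in libraries 1 to 5. In arsenic libraries 1 to 5 it stood at 1.53%, 6.72%, 6.05%, 14.9% and 14.6%. Every arsenic library was above every control library, and arsenic 1 was close to them. The means were 8.77% ± 5.83 in arsenic and 0.615% ± 0.274 in control, a difference of 8.15 points (unadjusted p = 0.000139, adjusted p = 0.470, quasi-binomial model), on 976 to 1652 reads per library. The other N4bp2l1 tile, 150581001 to 150582000, was methylated in both groups, at 87.0% ± 4.27 in arsenic and 74.0% ± 5.80 in control.

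Cfap74, which encodes a protein of the sperm flagellum, held a tile on chromosome 4 (155426001 to 155427000, 3 CpGs) at 93.1% ± 1.94 in arsenic and 82.1% ± 5.63 in control, with no overlap. Prdm16, a zinc finger factor of brown fat, held one at 154358001 to 154359000 with 93.6% ± 3.23 in arsenic and 80.2% ± 7.34 in control, also without overlap. The largest difference of the 12 tiles was in Myt1, a neural zinc finger factor on chromosome 2. There the 4 CpGs at 181763401 to 181763476, just past the promoter window, stood at 74.8%, 89.4%, 86.4%, 85.8% and 86.0% in arsenic libraries 1 to 5. The control libraries stood at 60.7%, 82.2%, 62.1%, 60.8% and 61.6%. Control 2 was the only control library within the arsenic range, and only 84 to 151 reads per library covered the tile. The read-weighted difference of 19.2 points had an unadjusted p of 0.00161 and an adjusted p of 0.686 in the quasi-binomial model.

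Nanos1 had the sixth of these tiles (chr19:60756001-60757000), with 62 CpGs from the printed promoter's last bases into the gene. It stood at 2.53%, 12.2%, 4.61%, 2.81% and 5.51% in arsenic and 0.629%, 0.691%, 0.632%, 2.16% and 1.94% in control. The groups did not overlap, and arsenic 2 was highest. The mean was 5.53% ± 3.93 in arsenic and 1.21% ± 0.770 in control (adjusted p = 0.686). The read-weighted difference was 4.57 points, and 2.80 without arsenic library 2 (adjusted p = 0.673, quasi-binomial model). The promoter window itself stood at 3.96% in arsenic and 3.63% in control.

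Among tiles lower in arsenic, Hoxc11, a homeobox gene of the posterior trunk, had the smallest p of all distal tiles. Its tile (chr15:102955001-102956000, 21 CpGs, within 1 kb of a gene end) stood at 1.67%, 1.20%, 0.523%, 1.43% and 0.231% in arsenic libraries 1 to 5. In control libraries 1 to 5 it stood at 5.86%, 7.69%, 4.60%, 14.4% and 6.57%. The groups did not overlap, and control 4 was highest. The means were 1.01% ± 0.611 in arsenic and 7.82% ± 3.83 in control (difference -6.81 points, unadjusted p = 6.09e-05, adjusted p = 0.405, quasi-binomial model). With each library left out in turn the adjusted p was 0.304 to 0.674.

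Clec3b, which encodes the plasminogen-binding protein tetranectin, had a tile at its end (chr9:123157001-123158000, 17 CpGs) with 8.10% ± 4.53 in arsenic and 21.1% ± 4.66 in control. Arsenic 2, at 15.6%, lay just above the lowest control library, at 15.4%. The Cdkn1c tile at 143458001 to 143459000 on chromosome 7, with 5 CpGs, stood at 10.3%, 10.1%, 13.1%, 8.33% and 7.24% in arsenic. It stood at 18.1%, 13.8%, 21.5%, 19.1% and 20.5% in control, all above the arsenic libraries (adjusted p = 0.588). The next tile of Cdkn1c, with 68 CpGs, stood at 5.03% ± 1.84 in arsenic and 7.84% ± 1.83 in control (unadjusted p = 0.0139). Notum, an enzyme that inactivates Wnt proteins, had a tile at 84.5% ± 2.01 in arsenic and 89.9% ± 1.48 in control, without overlap. Rxfp2, the receptor of the hormone that guides testis descent, had one at 17.8%, 17.1%, 19.5%, 16.9% and 28.7% in arsenic libraries 1 to 5 and at 31.5% ± 5.30 in control, with arsenic 5 inside the control range. Vwa1, a protein of the extracellular matrix, had one at 2.50% ± 1.31 and 5.86% ± 2.65 in arsenic and control. The adjusted p of these 6 tiles was 0.405 to 0.686.

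**Figure D4:**
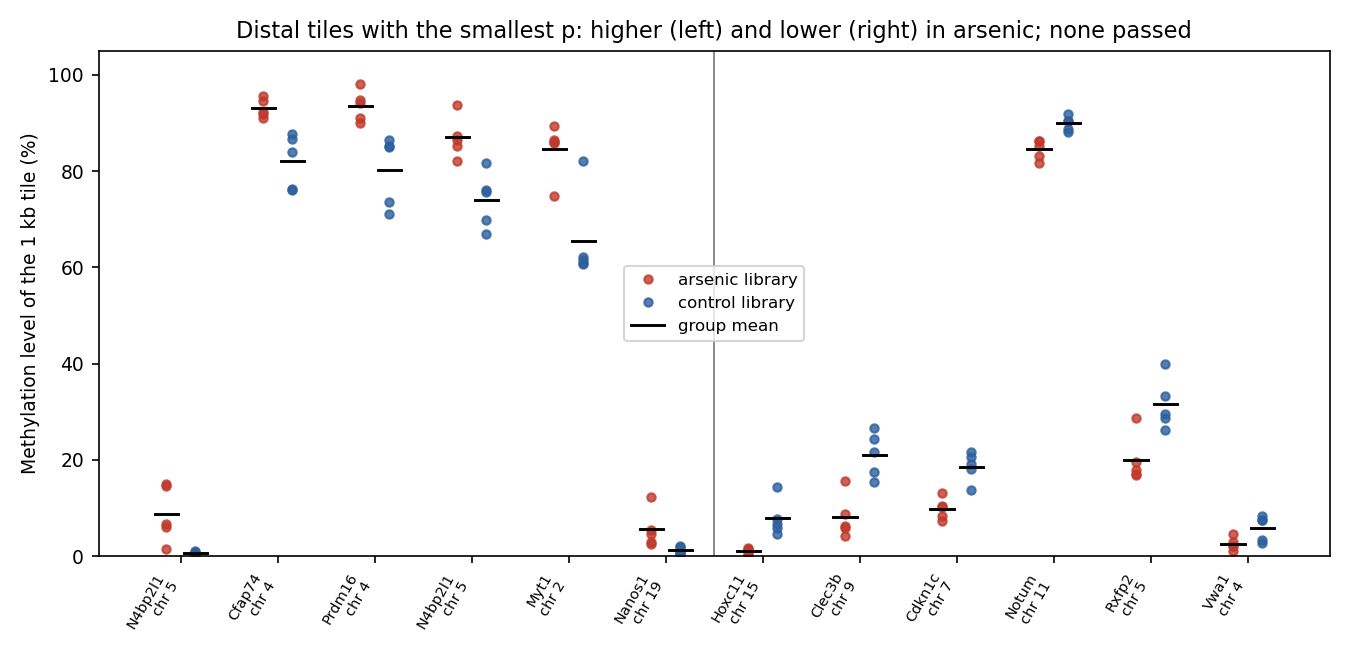
Methylation level (%, y axis) in single arsenic (red, left of each pair) and control (blue, right) libraries of the 12 distal tiles with the smallest unadjusted p, named by gene and chromosome (x axis); black lines are group means of 5 libraries. The 6 left tiles were higher and the 6 right tiles lower in arsenic, and 0 passed the adjusted test.

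Several densely covered tiles varied widely between libraries of a group. The distal tile with the most CpGs (71) was that of Hrh3, at 5.10%, 1.93%, 7.36%, 0.9501% and 3.04% in arsenic and 3.64%, 2.97%, 0.858%, 15.5% and 3.26% in control. Control 4 stood alone at 15.5% (Wilson 95% interval 14.0% to 17.1%, 2033 reads), and the groups overlapped. Its promoter, printed above, likewise had an SD of 11.5 points in control. On chromosome 17, which has the fewest distal cytosines, the tile of Mettl4 (chr17:94750001-94751000, 28 CpGs) covers the printed promoter. It stood at 0.690%, 0.507%, 11.1%, 8.56% and 19.2% in arsenic and 0%, 1.10%, 0.442%, 0.565% and 7.05% in control. The 0% is a count of 0 in 636 reads, which allows a level of up to 0.472%. Arsenic 1 and 2 lay among the control libraries (means 8.01% ± 7.82 and 1.83% ± 2.94, adjusted p = 0.835). The tiles of Slc35e2 and Foxk2 and those of Itgb1, an integrin chain, and Cr1l, a complement regulator, had group means of 1.30% to 4.48%, and their libraries overlapped.

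The most variable distal tiles with at least 10 CpGs also overlapped between the groups. A tile 4506 bp from Actg1, the gamma actin gene, stood at 24.5% ± 6.21 in arsenic and 35.6% ± 13.3 in control, with control 4 at 55.1%. A tile on chromosome 12, 37398 bp from Macc1, ranged from 5.61% to 41.6% in arsenic and from 16.3% to 37.3% in control. One on chromosome 19, 28540 bp from the cytokine receptor gene Csf2ra, ranged from 9.28% to 51.5% in arsenic and from 26.03% to 37.3% in control. Inside Ccnd1, the cyclin D1 gene, a tile averaged 77.3% ± 13.6 in arsenic and 81.4% ± 9.40 in control.

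Of 512 protein-coding genes with distal positions, 354 had a tile at one of their ends, on 321 distinct tiles since neighbours can share one. The tile may lie up to 1 kb outside its gene; those of Xcr1 and Ccdc57 lay inside the neighbouring Fyco1 and Fasn. Such a tile, the one with the most covered CpGs, averaged under 10% in 76.8% of distal and 73.9% of other autosomal genes. It was lower in arsenic for 59.3% of distal and 57.6% of other genes, and without control libraries 4 and 5 for 45.2% and 46.8%. No member of any gene list below passed the adjusted test, against 0% of all tiles, so the lists are described by levels. In the lists, directions and median differences over all libraries are read-weighted. Those without control libraries 4 and 5 are differences of library means. The lists were drawn up with earlier results of these data known.

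Homeobox genes were nearly all unmethylated at their ends. By the read-weighted difference 9 of 10 measured were lower in arsenic. Without control libraries 4 and 5, 8 of 10 were lower by library means. Their median level was 3.82% and their median read-weighted difference -1.15 points. The median for all 354 distal genes, -0.243, is of library means and so another measure. Without control libraries 4 and 5 the median difference of library means was -0.607 for the homeobox genes. For all distal genes it was 0.203. An unadjusted p under 0.05 was found for 3 of 10, all lower in arsenic, against 3.57% of all tiles: Hoxc11, Hoxc13 at 0.758% ± 0.625 in arsenic and 2.43% ± 1.25 in control, and Emx2, a forebrain and urogenital factor, at 0.677% ± 0.594 and 1.86% ± 1.52. Hoxc9, the exception in the read-weighted difference, stood at 3.94% ± 2.23 and 4.05% ± 1.25. Hoxc5 was the most methylated, at 14.95% ± 3.33 and 15.8% ± 3.55. All listed homeobox genes but Emx2 are neighbours in the HoxC cluster, so they are not independent. Of the 52 tiles of that cluster 32 were lower in arsenic by library means. Of all distal tiles 52.7% were lower by the read-weighted difference.

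Of the other developmental transcription factors 6 of 7 were under 10%. Foxk2 stood at 1.30% ± 0.331 in arsenic and 1.81% ± 1.53 in control, and the Notch target Hes5 at 3.78% ± 0.794 and 4.31% ± 1.37. Their median read-weighted difference was -0.452 points. The median difference of library means without control libraries 4 and 5 was 0.334. At an unadjusted p under 0.05, 1 member (Myt1) was higher, against 2.59% of all tiles. Among 10 ligand and Wnt pathway genes 8 were under 10%. Fgf3 stood at 1.44% ± 0.574 in arsenic and 2.84% ± 1.62 in control (unadjusted p = 0.0114, adjusted p = 0.736), and its neighbour Fgf4 at 2.71% ± 2.02 and 1.30% ± 1.15. Ski, a repressor of TGF-beta signalling, was partly methylated at 30.4% ± 2.92 and 29.2% ± 4.05, and Dvl1, a transducer of Wnt signals, was methylated at its tile, at 90.9% ± 3.18 and 90.2% ± 3.04. The Dvl1 tile lies at the high-coordinate end of the gene and was matched to no promoter window.

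All 12 listed imprinted genes of distal chromosome 7 lay in the window, and 9 were measured, 7 of them under 10%. Besides Cdkn1c, Nap1l4 stood at 1.72% ± 1.42 in arsenic and 1.55% ± 1.605 in control and Cars, a tRNA synthetase gene, at 1.61% ± 1.35 and 0.666% ± 0.322. The gene-end tiles of the receptor genes Tnfrsf26 and Tnfrsf22 were at opposite levels, 95.6% ± 1.57 and 1.31% ± 2.12 in arsenic and 94.9% ± 2.09 and 1.44% ± 1.82 in control. The Tnfrsf26 tile lies at the low-coordinate end of its gene and the Tnfrsf22 tile at the high-coordinate end. Their levels thus belong to different ends and do not compare the genes as such. Of 12 zinc finger genes 11 were measured and 9 were under 10%, on 10 distinct tiles of which 8 were under 10%, since Zfp445 and Zkscan7 share a tile. Zbtb46, a factor of dendritic cells, stood at 54.9% ± 8.34 in arsenic and 55.1% ± 4.71 in control, and Zbtb21 at 3.66% ± 1.02 and 2.50% ± 1.96.

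Olfactory and vomeronasal receptor genes were the largest list, 64 genes, most of them on chromosome 10, but only 4 had a measured gene-end tile. Vmn2r18 stood at 63.8% ± 4.73 in arsenic and 67.8% ± 3.87 in control, Olfr773 at 59.4% ± 5.46 and 65.9% ± 5.79, Vmn2r86 at 18.1% ± 8.72 and 20.5% ± 8.86, and Vmn2r87 at 2.58% ± 2.65 and 6.01% ± 5.51. All 4 were lower in arsenic, with a median read-weighted difference of -3.59 points, and 0 had an unadjusted p under 0.05. Of 9 chemokine receptor and interferon-induced genes 4 were measured. Isg15, an interferon-induced ubiquitin-like protein, stood at 2.80% ± 2.87 in arsenic and 0.540% ± 0.574 in control (unadjusted p = 0.0309), and Ccr9, a chemokine receptor of gut-homing T cells, at 93.7% ± 2.15 and 96.7% ± 0.583 (unadjusted p = 0.0153).

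Of 8 solute carrier genes 5 were measured, all under 10% and all lower in arsenic by the read-weighted difference. By library means Slc6a20a was slightly higher, at 3.19% in arsenic and 3.07% in control. Without control libraries 4 and 5, 3 of the 5 were lower by library means. The lactate transporter gene Slc16a3 stood at 1.73% ± 0.585 in arsenic and 3.46% ± 1.96 in control (unadjusted p = 0.0213). The keratin genes Krt8 and Krt18 stood at 2.33% ± 1.39 and 9.16% ± 1.67 in arsenic and 1.68% ± 1.51 and 9.79% ± 0.994 in control. Of 7 testis and meiosis genes 3 were measured. Tex19.1, a germ cell gene needed in meiosis, was methylated at its 5-CpG tile, at 96.2% ± 1.18 in arsenic and 95.8% ± 2.24 in control. That tile lies at the high-coordinate end of the gene and was matched to no promoter window. Ccdc137 stood at 4.64% ± 0.398 in arsenic and 4.77% ± 2.44 in control. Rtel1 was the only one of 23 listed autosomal telomere maintenance genes in the windows, and its tile stood at 1.09% ± 0.359 in arsenic and 2.15% ± 1.24 in control (unadjusted p = 0.0514, adjusted p = 0.815).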

How the data were processed

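The authors deposited counts of all, methylated and unmethylated reads per CpG cytosine and library, laid out like united methylKit output, per the file headers. The submitters' processing notes name Trim Galore 0.6.5, Bismark 0.22.3, methylKit 1.22.0 and mm10; how these were set is not given in the sources used here. The counts were not normalised, and the strands of a CpG were listed separately.

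Levels per library weighted cytosines equally and were compared by two-sided exact permutation over 252 assignments of the labels, or by exact sign flips over 10 libraries. Tiles and cytosines were tested over the whole table by a quasi-binomial model with an F test and Benjamini-Hochberg adjustment. Its dispersion was squeezed as in limma and kept at 1 or more, with a prior estimated from features at 5% to 95%, a choice made on simulated data. Differences of means over libraries can deviate slightly from the read-weighted difference used for calls. Genes and promoters came from RefSeq tables on GRCm38.p6. No genome sequence was used, so sequence outside promoters was not analysed here. Wilson intervals and limits for a count of 0 (3 counts) cover counting error only, since reads carry no molecular identifiers.

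Tiles were named by a rule: called tiles, or with fewer than 5 called in a direction the 6 with the smallest p in it; the densest tile of the 3 chromosomes with the most and the 3 with the fewest cytosines; the 4 most variable with at least 10 CpGs; some last tiles; and list members by covered CpGs. List members outside the first 4, and unmethylated runs, were picked after their values were seen. The members, lists and tests were chosen with earlier results of these data known. Computations used Python 3.11.15, numpy 2.4.6, scipy 1.17.1, pandas 2.3.3 and numba 0.67.0.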

Additional observations from a re-analysis of the deposited data

Results flagged for a closer look

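In groups of 5 libraries, 172 sets of levels were searched for a library whose gap to its nearest neighbour took over 0.71 of the group's range. Of these, 21 were found. Chance gives about 1 in 20 sets, or 8.6, for independent normal values; these sets overlap and many levels lie near 0, and the rate for them was not tested. They fell on all 10 libraries, with 1 to 3 each, and 5 on control 4 or 5. No cause was tested.

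Among arsenic libraries, arsenic 5 was highest in the distal mean (45.5%, next 45.1%), the distal level of chromosome 11 (44.5%, next 43.9%) and the Rxfp2 tile (28.7%, next 19.5%). Arsenic 1 was lowest in the Myt1 tile (74.8%, next 85.8%). Arsenic 4 was highest at the ends of Prdm16 (8.07%) and Zbtb46 (69.6%) and in a Fasn tile within 1 kb of Ccdc57 (8.55%), arsenic 3 at the end of Zfp512b (5.17%) and in a Fyco1 tile within 1 kb of Xcr1 (6.20%), and arsenic 2 at the end of Sox18 (8.65%).

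Among control libraries, control 4 was highest in the distal level of chromosome 8 (63.8%, next 61.6%), the Hrh3 tile (15.5%, next 3.64%) and the Itgb1 tile (5.52%, next 1.15%), and control 5 in the Mettl4 tile (7.05%, next 1.10%) and at Phlda2 (10.5%, next 0.289%). Control 3 was highest in the Foxk2 tile (4.51%, next 1.595%) and at Zfp740 (9.95%, next 1.37%), and control 1 at Emx2 (4.56%, next 1.44%) and in the Fasn tile near Ccdc57 (21.1%, next 2.40%). Control 2 was highest in the Myt1 tile (82.2%, next 62.1%). It was lowest in the distance of distal from other autosomal levels inside genes (-2.89 points, next -2.73).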

How the results depend on the processing

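Of 654 repeats of the results under other settings, 596 were rated the same. For differences this meant the same direction and side of the threshold, and for counts an equal or similar number. The difference of the distal from the other autosomal level kept direction and side at every setting tried. That from the centromere-side end did so at all but windows of 4 Mb, where it was 0.189 points. There the class differences turned to 0.817 (near gene ends) and 1.71 points (inside genes). The group difference of the distal mean turned to 0.124 points without control libraries 4 and 5, when that near gene ends was 0.261 and inside genes 0.302. Inside genes it also turned to 0.00395 with strands summed, 0.0900 with windows of 1 Mb, and lay between -0.155 and 0.144 without single libraries. The group difference of the distal-to-other distance, 0.00382 points, was -0.00495 with strands summed, -0.109 with reads and -0.0450 with chromosomes weighted equally, and between -0.0270 and 0.0591 without single libraries. Classes that passed numbered 0 to 1 without single libraries.

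Distal tiles without overlap, 24, numbered 15 at a coverage of at least 20, 13 and 54 with windows of 1 and 4 Mb, 36 to 51 without single libraries and 109 without control libraries 4 and 5, where fewer libraries make overlap rarer. Coverage and window also change how many distal tiles there are. The share over all tiles was not computed at these settings, so the counts are not read as changes in the result. The binomial test on reads, which leaves out the spread between libraries, called 23 distal tiles and 1465 distal cytosines, against 0 of either in the main model. Its shares over all tiles and cytosines were not computed.

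Libraries of equal replicate number were close to uncorrelated in their deviations, at -0.0126 to 0.0167. Control libraries 1, 2 and 4 nevertheless matched the arsenic library of their own number best, and so did arsenic library 3 with its control. Whether the numbers pair the libraries was not tested. With the number as a replicate block the distal difference stayed at -0.273 points (exact sign-flip p = 0.375, smallest possible 0.0625), 0 tiles and 0 cytosines were called, and distal cytosines with an unadjusted p under 0.05 numbered 4024 in place of 2301. The share over all cytosines was not computed for the block model.

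Depth limits the precision of single cytosines, at a median of 26 to 40 reads.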
